A study of Sus scrofa with 48 samples.

Results

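Glutathione peroxidase 3 (GPX3) and 9 other antioxidant enzymes (GPX1, GPX4, CAT, SOD1, SOD2, PRDX1, PRDX2, TXN and GSR) were followed probe by probe in whole blood of pigs from the low and high residual feed intake (RFI) lines. A probe was taken when the gene name in its scanner file, in upper case, was that of 1 of these enzymes and its spot was in the deposited table of normalized values. This gave 51 probes of 10 genes among the 37113 retained probes, which carry 26924 gene names, and left out 2 of the 53 spots that the array holds for these genes. GPX3 was chosen on its measured line difference in these same pigs, so its line difference is given as a description without a test. PRDX1 was listed by the study for the same contrast in these pigs, and its test is not independent evidence either.

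Superoxide dismutases turn superoxide into hydrogen peroxide, SOD1 in the cytosol and SOD2 in mitochondria. Catalase (CAT), the peroxiredoxins and the glutathione peroxidases then remove the peroxide, with electrons carried by thioredoxin (TXN) or by glutathione, which glutathione reductase (GSR) regenerates. Most of these proteins are abundant inside red blood cells, whereas GPX3 is the secreted plasma form of glutathione peroxidase, known to be supplied largely by the kidney. The question put to the data was whether the other enzymes follow the line difference of GPX3.

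The pigs were French Large White castrated males from a divergent selection on RFI, the feed eaten beyond what growth and maintenance call for. They were fed ad libitum a high-fat, high-fiber (HF) or a low-fat, low-fiber (LF) diet, and blood was taken at 132 days of age. Each of the 4 groups (low RFI HF, low RFI LF, high RFI HF and high RFI LF) held 12 pigs, and the RNA of each pig was hybridized to its own single-colour array. Values are log2 intensities centred on the array median, so that 0 is the middle probe of an array, and differences are low RFI minus high RFI on that log2 scale. The fold change (FC) carries a minus sign where the ratio of low to high RFI pigs was below 1.

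The 48 arrays lay on 6 slides of 8, each with 2 pigs of every group, scanned on 3 days. On the array level, 40771 to 46727 of 60306 non-control spots were well above background, and the median probe lay at 5.91 to 15.97 times the local background. Markers of blood cells were detected: of 77 genes listed for erythroid cells, neutrophils, monocytes, B cells, T cells, NK cells and platelets, 55 were measured, and 54 of these had a probe well above background on every array. As 33719 of all 37113 retained probes met that mark, the count says little about the tissue. The line contrast passed an adjusted P-value of 0.05 in 1027 probes.

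The sequences of the GPX3 probes are shown first because they tell which of these probes overlap and so are not separate evidence. All probes on the array are 60 bases long, and 30 bases of each are printed here, 5′ to 3′, as the scanner files give them. The first 3 GPX3 probes lie over the same stretch, and the fourth spot, which the files name only by an accession of CAPNS1 (calpain small subunit 1), has the sequence of A_72_P036051 over all 60 bases. Capitals mark the bases that differ among these 4 spots: counted from the first base of the window, A_72_P036051 carries G7A and C27A relative to A_72_P440086, and 56 of 58 aligned bases are equal.
A_72_P440086: gattcaGttggtctgctctaacctggCctt
A_72_P036051: gattcaAttggtctgctctaacctggActt
A_72_P671275: gattcaGttggtctgctctaacctggCctt
CAPNS1-accession spot: gattcaAttggtctgctctaacctggActt
A_72_P666610: tgacctggtggcattagactcaccccgtgt
A_72_P637182: agaagttctacacgttcctgaaaacgcctg
The last 2 probes, A_72_P666610 and A_72_P637182, share no run of 20 bases with any other non-control spot on either strand. The files give no position for these probes in a genome.

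Low RFI pigs had less GPX3 signal on 4 of the 5 GPX3 probes, by 1.70 to 2.60 on the log2 scale, and did not separate the lines on the fifth. The lowest, median and highest values of A_72_P666610 were -2.13, 1.09 and 3.67 in the 24 low RFI pigs and 1.32, 3.21 and 4.78 in the 24 high RFI pigs. On this probe 13 low RFI pigs lay below every high RFI pig, and no low RFI pig lay above the highest high RFI pig. The difference of the line means was -2.60 (SE 0.45, FC -6.07), with means of 0.51 ± 2.05 and 3.11 ± 0.87 (SD, n = 24).

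The overlapping probes behaved alike. A_72_P036051 ran from -3.20 through a median of -1.3 to 1.15 in low RFI pigs and from -0.71 through 0.73 to 2.41 in high RFI pigs, a difference of -2.06 (SE 0.33, FC -4.18). A_72_P671275 ran from -3.09 through -1.41 to 0.84 in the low RFI line and from -1.11 through 0.31 to 2.0 in the high RFI line, a difference of -1.84 (SE 0.30, FC -3.58). Values of A_72_P440086 were -2.72, -0.97 and 1.06 against -0.91, 0.52 and 2.23, a difference of -1.70 (SE 0.29, FC -3.25). On each of the 4 probes the lines overlapped in the middle of the range, with 12 to 14 low RFI pigs below every high RFI pig and 5 to 7 high RFI pigs above every low RFI pig. These 4 probes are among the 2.77% of all retained probes past the adjusted threshold, which nothing can be read from, since GPX3 was chosen on this contrast. The probes were not well above background in 6 low RFI pigs (A_72_P036051) and in 3 low RFI pigs (A_72_P671275), and in no high RFI pig, and since no background was subtracted the differences of these dim spots are compressed.

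The fifth probe, A_72_P637182, ran from 1.65 through 2.65 to 3.69 in low RFI pigs and from 1.13 through 2.76 to 3.46 in high RFI pigs. The lines overlapped almost completely, and the difference was -0.08 (SE 0.16, 95% confidence interval -0.41 to 0.25). The spot was well above background on all 48 arrays, at 30.4 to 137 times the local background. A mean over the 5 GPX3 probes, at -1.66 (SE 0.29), thus joins probes that did not give the same line difference. In a bulk blood sample, fewer cells of a type and less RNA per cell cannot be told apart.

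**Figure D1:**
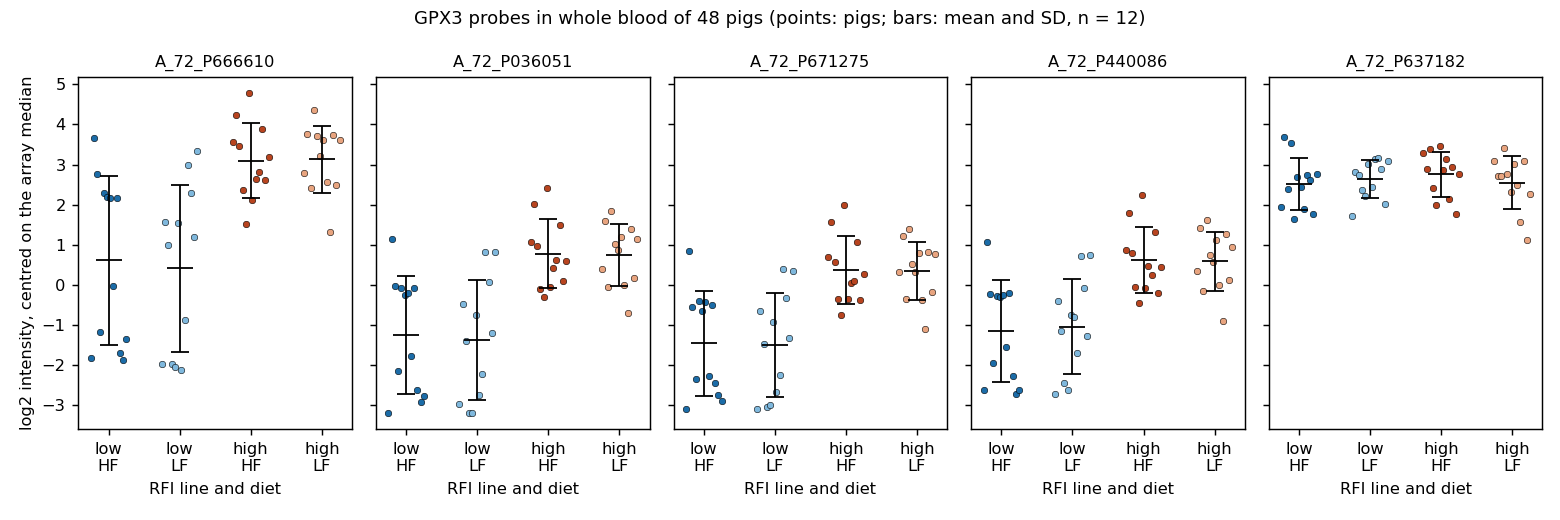
Log2 intensity, centred on the array median, of each GPX3 probe (5 panels) in every pig (points) by line and diet, with the mean and SD of each group of 12 pigs (bars). Low RFI pigs reach down to -2.13 on A_72_P666610 while the lowest high RFI pig is at 1.32, and the 4 groups overlap on A_72_P637182.

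Values of these probes were more spread out in the low RFI line. On A_72_P666610 the SD was 2.05 in low RFI pigs and 0.87 in high RFI pigs, and the widest gap between neighbouring low RFI pigs, from -0.03 to 0.99, left 11 pigs below and 13 above. The same 11 pigs lay below the widest gap of A_72_P671275, from -2.25 to -1.48. On the other 2 of the 4 probes the widest gap lay higher, from -0.07 to 0.71 (A_72_P440086) and from 0.07 to 0.81 (A_72_P036051), and left 21 pigs below and 3 above, so the split into 11 and 13 pigs was not common to the 4 probes. The 11 pigs comprised 6 pigs of the HF and 5 of the LF diet and came from all 6 slides. Over the 4 probes, 12 low RFI pigs, 6 of each diet, lay below every high RFI pig on every probe, with 1 to 3 such pigs on each slide.

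**Figure D2:**
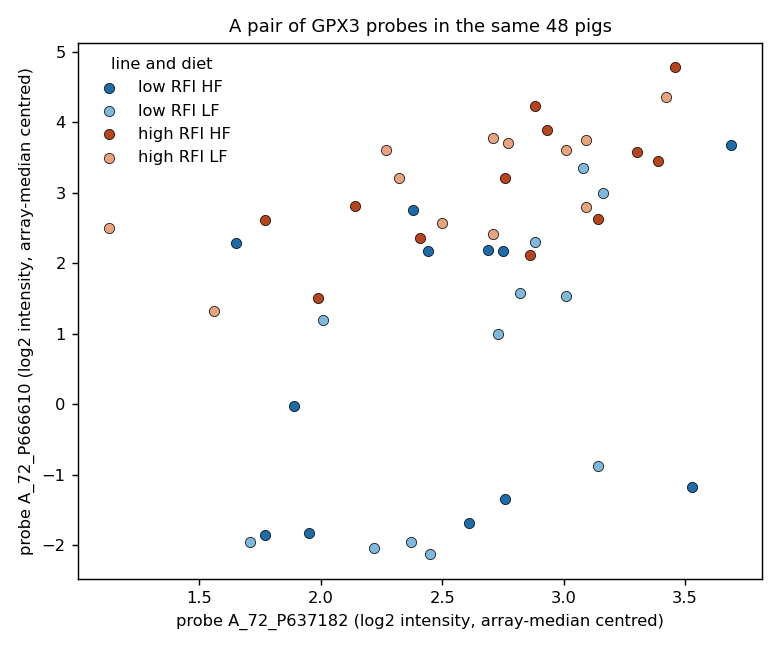
Log2 intensity, centred on the array median, of probe A_72_P666610 (y axis) against probe A_72_P637182 (x axis) in the 48 pigs (points), coloured by line and diet. The low RFI pigs reach from 3.67 down to -2.13 on the y axis, with a gap from -0.03 to 0.99, while both lines cover much the same range of the x axis, 1.65 to 3.69 and 1.13 to 3.46.

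The 4 probes ranked the pigs of a line almost identically. Pearson's r between any pair of them was 0.93 to 0.99 in the 24 low RFI pigs and 0.97 to 0.99 in the 24 high RFI pigs, values to which 3 of the probes contribute with overlapping sequence. Between A_72_P637182 and these 4 probes r was 0.39 to 0.49 within the low RFI line and 0.63 to 0.67 within the high RFI line. Each r is a description over pigs measured on the same arrays.

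The annotation of A_72_P036051 is in doubt, since the files name it GPX3 but give it the accession of CAPNS1. The identical CAPNS1-accession spot gave a difference of -2.03 (SE 0.32, FC -4.09) and an r with A_72_P666610, with which it shares no sequence run, of 0.99 in low RFI and 0.98 in high RFI pigs (n = 24 each). By contrast, the probes A_72_P022746 and A_72_P002897, named CAPNS1 and carrying the same accession, differed by -0.02 each (SE 0.05 and 0.06, limma adjusted P-value 0.97 for both). Counting A_72_P036051 as GPX3 or not leaves 3 other GPX3 probes with a difference of -1.70 or beyond.

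Lower GPX3 values in the low RFI line were found on every slide. Within the 6 slides, with 4 pigs of each line on each, the difference of A_72_P666610 ranged from -3.23 to -1.50, that of A_72_P036051 from -2.65 to -1.15, that of A_72_P671275 from -2.45 to -0.94 and that of A_72_P440086 from -2.27 to -0.94. A_72_P637182 was lower on 4 slides and higher on the other 2, from -0.45 to 0.42.

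Diet was not used to choose GPX3 and could be tested. None of its 5 probes passed the test for diet, with HF minus LF differences of -0.05 to 0.08 and a lowest limma P-value of 0.80, adjusted P-value 1. For A_72_P666610 the diet difference was 0.08 (95% confidence interval -0.82 to 0.98), a wide interval that leaves room for changes in either direction. No GPX3 probe showed a line by diet interaction (lowest P-value 0.32, for A_72_P637182, with an interaction of -0.33).

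Among the 46 probes of the other 9 enzymes, 4 passed an adjusted P-value of 0.05 for the line, all of them SOD1 probes that were overexpressed in low RFI pigs, against 1.32% of all retained probes in that direction. No probe of another enzyme was underexpressed in low RFI pigs at this threshold, against 1.44% of all retained probes, and 16 of the 46 had values below 0. At the criterion of the study's methods, a P-value below 0.01 and an FC beyond 1.1 in size, 8 of the 46 passed, beside 5.78% of all retained probes. Of these, 6 were higher (4 of SOD1 and 2 of CAT) against 2.7% of all retained probes, and 2 were lower (PRDX1) against 3.09%. Line differences of the 46 probes ran from -0.39 to 0.36, with a median of 0.12 beside 0.02 over all retained probes, and none came near those of the 4 GPX3 probes. With 46 probes and that share over all probes, a count of 0 lower calls says little, and 1 or 2 PRDX1 probes were called lower under 3 other settings.

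**Figure D3:**
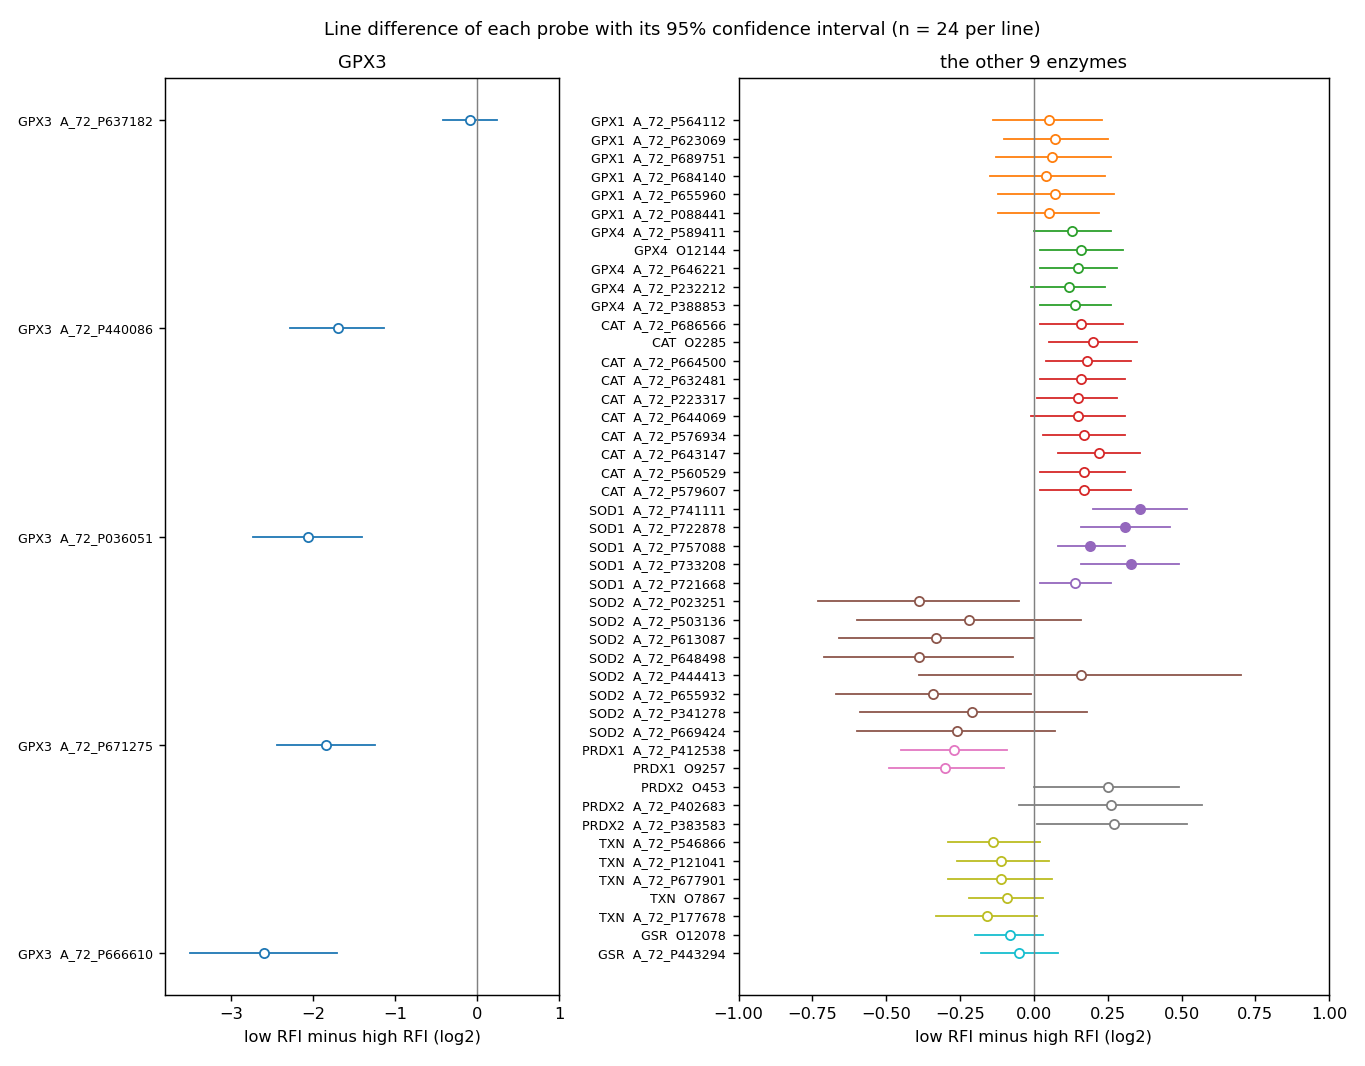
Difference between low RFI and high RFI pigs (log2, x axis) for each of the 51 probes, with its 95% confidence interval (line), GPX3 on the left and the other 9 enzymes on the right, on different x scales. Filled points mark probes other than GPX3 with an adjusted P-value under 0.05, which are 4 SOD1 probes between 0.19 and 0.36.

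SOD1, the cytosolic copper-zinc superoxide dismutase, was overexpressed in low RFI pigs on 4 of its 5 probes. Its probes A_72_P741111, A_72_P722878 and A_72_P733208 overlap each other in a chain, so they are not separate evidence, while A_72_P757088 and A_72_P721668 share no run of 20 bases with them. The latter pair is annotated to another sequence record than the 3 overlapping probes. The first 30 bases of the 3 overlapping probes, all of them called, and of A_72_P721668, which was not, are printed to set them side by side.
A_72_P741111: cacatatgaatattaaacttagttgtctga
A_72_P722878: cagtgatctctgtacctgccagacttaatc
A_72_P733208: cttagttgtctgaatttctccagttctcac
A_72_P721668: aagaaagtacaaagacgggaaatgctggaa
On A_72_P741111 the low RFI pigs ran from 2.70 through a median of 2.86 to 3.80, and the high RFI pigs from 2.25 through 2.66 to 3.03. All 24 low RFI pigs lay above the median of the high RFI pigs, and 8 lay above every high RFI pig. The difference was 0.36 (SE 0.08, FC 1.28, limma adjusted P-value 0.0035).

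The other SOD1 probes went the same way by smaller amounts. A_72_P733208 differed by 0.33 (SE 0.08, adjusted P-value 0.016), A_72_P722878 by 0.31 (SE 0.07, adjusted P-value 0.0083) and A_72_P757088 by 0.19 (SE 0.06, adjusted P-value 0.043). The last of these calls was lost under 6 of 11 other settings, at adjusted P-values of up to 0.23. The call of A_72_P733208 was also lost with the column as deposited, at an adjusted P-value of 0.056. A_72_P721668, at 0.14 (SE 0.06), did not pass, with an adjusted P-value of 0.29. As the mean of its 5 probes, SOD1 stood at 3.61 ± 0.25 in low RFI and 3.34 ± 0.18 in high RFI pigs (SD, n = 24), a difference of 0.27 (SE 0.06, FC 1.2, adjusted P-value 0.0087), and was higher in low RFI pigs on 6 of 6 slides, by 0.13 to 0.38. Taken from its brightest probe alone, A_72_P721668, the gene was not called (0.14, adjusted P-value 0.31).

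CAT, which splits hydrogen peroxide into water and oxygen, had values above 0 on all 10 of its probes, and none passed the adjusted threshold. The probes A_72_P643147 (0.22, SE 0.07) and O2285 (0.20, SE 0.07) passed the criterion of the methods, with adjusted P-values of 0.081 and 0.16. With the slide as a block A_72_P643147 was called, at an adjusted P-value of 0.049. The other 8 (A_72_P686566, A_72_P664500, A_72_P632481, A_72_P223317, A_72_P644069, A_72_P576934, A_72_P560529 and A_72_P579607) lay between 0.15 and 0.18, at adjusted P-values of 0.22 to 0.45. Pig by pig, the mean of the CAT probes ran from 1.05 through 1.39 to 1.89 in low RFI pigs and from 0.85 through 1.28 to 1.76 in high RFI pigs, ranges that overlap widely. The difference of this mean was 0.17 (SE 0.07, adjusted P-value 0.19) and lay above 0 on 6 of 6 slides.

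The other glutathione peroxidases gave no call. GPX1, the cytosolic enzyme, had 6 probes (A_72_P564112, A_72_P623069, A_72_P689751, A_72_P684140, A_72_P655960 and A_72_P088441) with differences of 0.04 to 0.07 and adjusted P-values of 0.90 to 0.97. Its gene value differed by 0.06, with a 95% confidence interval of -0.12 to 0.24, which does not reach the size of the differences of the 4 lower GPX3 probes in either direction. GPX4, which reduces lipid hydroperoxides in membranes, had values of 0.12 to 0.16 on its 5 probes (A_72_P589411, O12144, A_72_P646221, A_72_P232212 and A_72_P388853), at adjusted P-values of 0.28 to 0.48. A_72_P646221 and A_72_P232212 have the same sequence, and they gave 0.15 and 0.12. The GPX4 gene value lay between 3.08 and 3.82 in low RFI pigs and between 2.88 and 3.79 in high RFI pigs, a difference of 0.14 (SE 0.06, adjusted P-value 0.30).

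PRDX1 and PRDX2, both cytosolic peroxiredoxins, stood on opposite sides of 0. The PRDX1 probes A_72_P412538 and O9257, which share 45 bases, gave -0.27 (SE 0.09, FC -1.21) and -0.30 (SE 0.10, FC -1.23), at adjusted P-values of 0.09 and 0.093. On A_72_P412538 the pigs ran from 3.62 through 4.17 to 4.46 in the low RFI line and from 3.9 through 4.29 to 5.24 in the high RFI line, with 6 low RFI pigs below every high RFI pig and 7 low RFI pigs above the high RFI median. The PRDX1 gene value was lower in low RFI pigs on 6 of 6 slides, by 0.05 to 0.43, and missed the adjusted threshold (-0.28, SE 0.09, adjusted P-value 0.092). Under 3 other settings it passed, at adjusted P-values of 0.044 to 0.047. The PRDX2 probes O453, A_72_P402683 and A_72_P383583 gave 0.25, 0.26 and 0.27, at adjusted P-values of 0.40, 0.58 and 0.38, with a gene value of 6.68 to 8.38 in low RFI and 6.51 to 8.26 in high RFI pigs.

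TXN, the small protein that reduces the peroxiredoxins, had values below 0 on 5 of 5 probes without a call. A_72_P546866 and A_72_P121041, which have the same sequence, gave -0.14 and -0.11, A_72_P677901 gave -0.11, and A_72_P177678 gave -0.16, at adjusted P-values of 0.46 to 0.75. O7867, at -0.09, is complementary to A_72_P177678 over 59 bases, so that the pair reads opposite strands, and both were well above background on all 48 arrays. GSR, which returns oxidized glutathione to its reduced form, differed by -0.08 (O12078) and -0.05 (A_72_P443294), at adjusted P-values of 0.70 and 0.93.

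SOD2, the mitochondrial manganese superoxide dismutase, varied most from pig to pig among these 9 enzymes, with an SD of 0.64 over the 48 pigs for the mean of its 8 probes. A_72_P023251 and A_72_P648498 gave the lowest values, -0.39 each (SE 0.17 and 0.16, adjusted P-values 0.29 and 0.23). A_72_P655932, A_72_P613087, A_72_P669424, A_72_P503136 and A_72_P341278 followed at -0.34, -0.33, -0.26, -0.22 and -0.21, the last 2 being the same sequence. A_72_P444413 stood apart at 0.16 (SE 0.27). The gene value ran from 1.41 through 2.79 to 4.14 in low RFI pigs and from 1.97 through 2.82 to 5.28 in high RFI pigs, nearly the same medians, and the difference of -0.25 (SE 0.18, adjusted P-value 0.75) changed sign between slides, from -0.90 to 0.41.

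**Figure D4:**
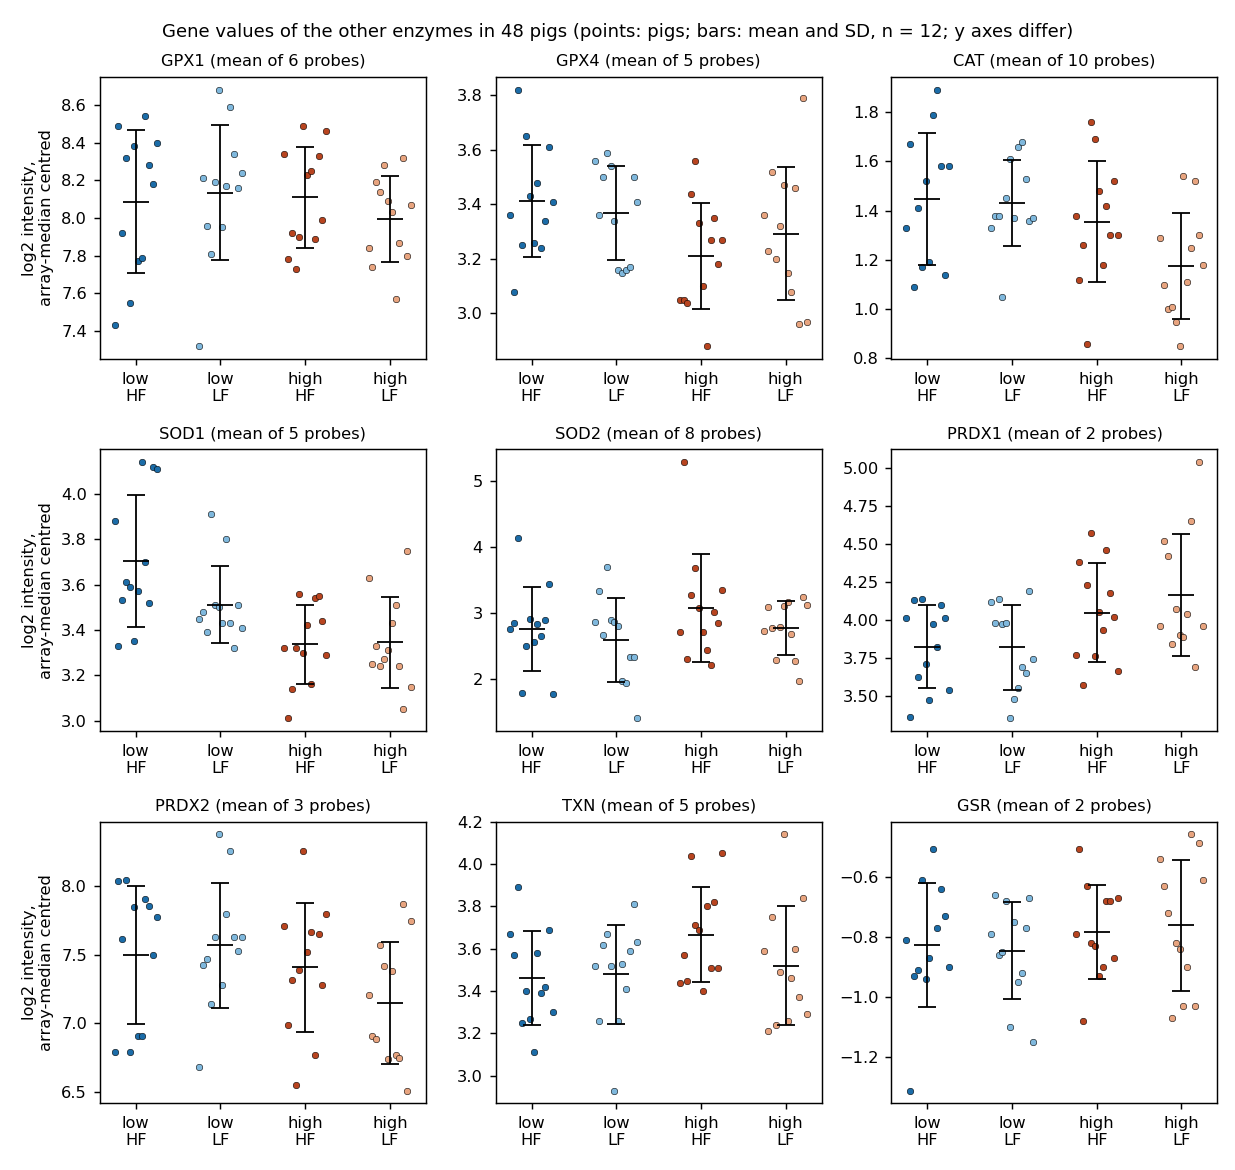
Gene value (mean log2 intensity of all probes of a gene, centred on the array median) of each of the other 9 enzymes in every pig (points) by line and diet, with the mean and SD of 12 pigs (bars), each panel on its own y axis. SOD1 lies between 3.32 and 4.14 in low RFI pigs and between 3.01 and 3.75 in high RFI pigs, and the lines overlap in every panel.

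**Figure D5:**
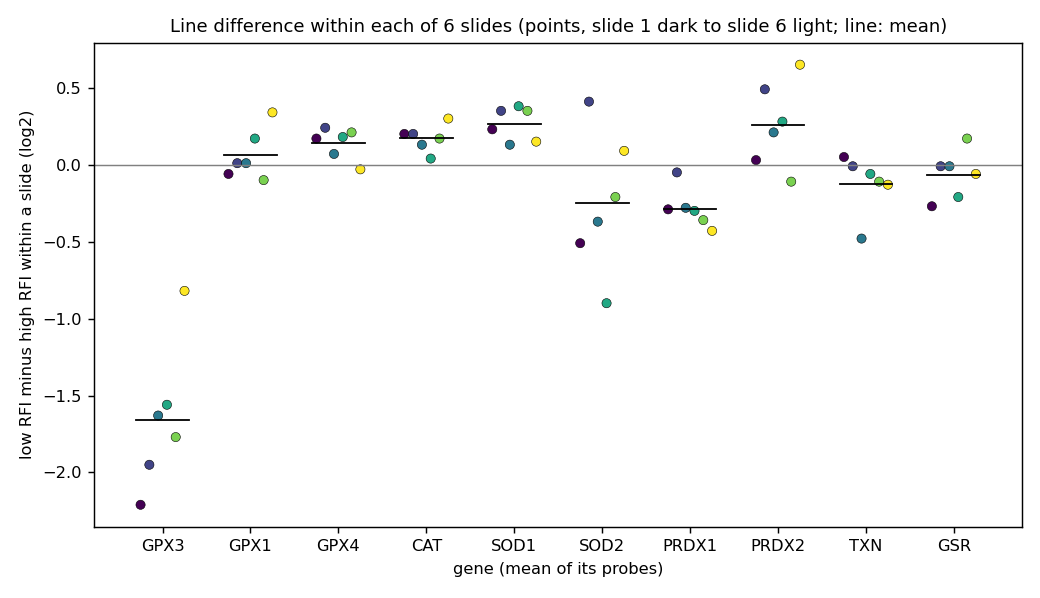
Difference between the mean of 4 low RFI and 4 high RFI pigs (log2, y axis) within each of the 6 slides (points) for the mean of the probes of each gene (x axis), with the mean over slides (line). GPX3 and PRDX1 are below 0 and SOD1 and CAT above 0 on all 6 slides, while SOD2 runs from -0.90 to 0.41.

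Diet did not change any of the 10 enzymes detectably. None of the 51 probes passed the criterion of the methods for HF against LF, against 0.245% of all retained probes, and none passed an adjusted P-value of 0.05 in limma, nor did any of the 37113 retained probes. At an unadjusted P-value of 0.05, 2 of the 51 probes passed, 1 of CAT (A_72_P643147, HF minus LF 0.15, P-value 0.032) and 1 of SOD1 (A_72_P722878, 0.15, P-value 0.048), beside 1.64% of all retained probes, and an analysis of variance of each probe also gave 2. The SOD2 probes had the widest diet differences, 0.18 to 0.37, with P-values of 0.11 and above. No probe had an interaction of line and diet below a P-value of 0.01, against 0.264% of all retained probes, or below 0.05, against 2.28%, and the lowest P-value was 0.099 (SOD1 probe A_72_P721668).

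Several of these enzymes moved with the erythroid markers inside a line. Of 25 listed erythroid genes 16 were measured. For the line, 15 of the 16 had values above 0, as did 15698 of all 26924 gene names, with a median of 0.12 (0.02 over all gene names). The adjusted threshold was passed by 1 of them, against 2.73% of all gene names. It was SLC4A1, the anion exchanger of the red cell membrane (0.26, SE 0.07, adjusted P-value 0.047). The mean of the 16 genes ran from 1.38 through 2.20 to 2.98 in low RFI pigs and from 1.12 through 2.19 to 2.80 in high RFI pigs, nearly equal medians. Its r with PRDX2 was 0.81 in low RFI and 0.91 in high RFI pigs (n = 24 each), with GPX1 0.79 and 0.74, and with CAT 0.71 and 0.45. In the opposite sense, r was -0.64 and -0.79 for PRDX1, -0.60 and -0.51 for GPX4 and -0.47 and -0.52 for GSR. It was -0.5 and -0.14 for SOD2 and -0.3 and -0.2 for TXN. SOD1 showed little relation, at -0.05 and -0.21, and GPX3 (A_72_P666610) gave 0.23 and 0.51. In blood counts of these pigs the study found more red blood cells in the low RFI line, with higher hemoglobin and hematocrit. The part of red cell content in these line differences was not tested.

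White cell markers also differed between the lines in places, although the study counted similar numbers of neutrophils, lymphocytes and monocytes in both lines. CXCR2 of neutrophils, CD14 of monocytes and MS4A1 and BLNK of B cells were underexpressed and LCK of T cells was overexpressed in low RFI pigs at an adjusted P-value of 0.05, by 0.21 to 0.47 in size. Over all 26924 gene names 1.43% were called lower and 1.3% higher, and 11226 lay below 0. The lists as a whole were less uniform: 5 of 9 neutrophil genes and 5 of 7 monocyte genes had values below 0, with CXCR2 and CD14 as their only calls, while 5 of 6 B cell genes lay below 0 and 7 of 8 T cell genes above 0. None of the 5 measured NK cell genes and 4 measured platelet genes passed. With 2.73% of all gene names called for the line, that says little. As a mean over 8 T cell genes, 22 of 24 low RFI pigs lay above the high RFI median, and as a mean over 6 B cell genes 4 of 24 did. With the B cell mean, r in low and high RFI pigs was 0.30 and 0.42 for SOD1 and 0.63 and 0.4 for GPX4. With the T cell mean it was 0.59 and 0.64 for PRDX1, 0.44 and 0.6 for GPX4 and 0.47 and 0.4 for GSR. It was -0.67 and -0.62 for PRDX2, -0.61 and -0.43 for GPX1 and -0.08 and -0.52 for GPX3 (A_72_P666610). The other T cell values were 0.12 and 0.31 for SOD1, -0.37 and -0.05 for CAT, 0.33 and -0.13 for SOD2 and 0.14 and 0.33 for TXN. With the neutrophil mean r was 0.07 and -0.14 for GPX3. For diet, the erythroid genes KLF1 (HF minus LF 0.42, P-value 0.0016) and EPOR (0.36, P-value 0.0069) and the neutrophil gene PGLYRP1 (0.63, P-value 0.0034) passed the criterion of the methods, all at a limma adjusted P-value of 1. That criterion was passed by 0.208% of all gene names. The part of these cells in the results was not tested.

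Further antioxidant genes were read from a list of 61, of which 50 were measured. Among them 26 had values above 0 and 24 below 0 for the line, where 15698 of all 26924 gene names lay above 0. The median was 0.01 beside 0.02 over all gene names, and 2 of the 50 passed an adjusted P-value of 0.05, against 2.73% of all gene names. Both were underexpressed in low RFI pigs, as were 1.43% of all gene names. GLRX, the glutaredoxin that reduces protein bonds with glutathione, ran from 0.71 through 1.3 to 1.93 in low RFI and from 1.33 through 1.85 to 2.56 in high RFI pigs, and the difference of its 4-probe mean was -0.55 (SE 0.09, FC -1.46, adjusted P-value 1.8e-04). MSRA, which repairs oxidized methionine, ran from -0.23 through 0.63 to 0.96 in low RFI and from 0.25 through 1.0 to 1.53 in high RFI pigs on its single probe, a difference of -0.43 (SE 0.09, FC -1.35, adjusted P-value 0.0017). NQO1, a quinone reductase, passed only the criterion of the methods, at 0.35 (SE 0.12, adjusted P-value 0.12), which 5.56% of all gene names passed. Over the settings its difference ran from 0.14 to 0.48, at adjusted P-values of 0.051 to 0.97.

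By group, the glutathione system had 14 of 19 genes measured, 8 above and 6 below 0, with GLRX as its only call. The thioredoxin and peroxiredoxin system had 9 of 11 measured, 3 above and 6 below 0, and the NADPH-supplying enzymes 5 of 7, 2 above and 3 below 0, both without a call. In the group of NRF2, heme and quinone enzymes 10 of 11 genes were measured, 6 above and 4 below 0, and in that of selenoproteins and methionine sulfoxide reductases 9 of 9, 5 above and 4 below 0. The ferritin genes FTH1 and FTL stood at 0.05 and 0.09, and CCS, the copper chaperone of SOD1, at -0.08. No gene of these groups passed the criterion of the methods for diet.

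Probes whose pattern over the 48 pigs was most like that of A_72_P666610 were ranked by Pearson's r among 37108 probes of other names. The CAPNS1-accession spot described above came first, with r = 0.99. The next 9 were A_72_P064941 (0.67), STAT3 (0.62), a spot named only by an expressed sequence tag (0.61), NME4 on 2 probes (0.59 each), DHDPSL (0.59), COX17 on 2 probes (0.58 and 0.57) and LACE1 (0.58). These r pool both lines and so carry the line difference on which GPX3 was chosen. Within high RFI pigs they were 0.05 for A_72_P064941, 0.18 for STAT3 and -0.12 for DHDPSL, and 0.44 to 0.62 for the others of the 9. With the group means subtracted the CAPNS1-accession spot kept 0.98 and no other probe exceeded 0.54, reached by MORN3 and TNNC2, while AGAP1 and 1 of the NME4 probes stood at 0.53 beside 5 probes without a gene symbol.

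The other members were only loosely related to GPX3 inside a line. Against A_72_P666610, r in low and high RFI pigs (n = 24 each) was 0.30 and 0.51 for PRDX2, 0.36 and 0.39 for GPX1, 0.18 and -0.07 for CAT, -0.14 and 0.16 for SOD2 and -0.04 and -0.29 for TXN. It was below 0 in both lines for SOD1 (-0.51 and -0.41), GSR (-0.42 and -0.25), PRDX1 (-0.21 and -0.49) and GPX4 (-0.16 and -0.38). SOD1, with the lowest adjusted P-value for the line among these 9 enzymes, thus tended to be higher where GPX3 was lower in both lines, as a description over pigs on shared arrays.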

How the data were processed

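RNA from the blood of 48 separate pigs (12 per group) was labelled with Cy3 and read on 1 single-colour 60-base oligonucleotide array each. The authors deposited raw spot intensity files, and a table of log2 median intensity centred on the array median after their filter on background, spot diameter, saturation and uniformity, without background subtraction. The submitters' processing notes name R 3.0.2. Of 48 deposited columns, 47 equalled this value computed from the scanner files within 1e-06, and that of high RFI HF replicate 1 repeated 2.71 in 37090 entries, so it was rebuilt from its scanner file. No genome build is given in the sources used here.

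Line, diet and their interaction were fitted to all 37113 retained probes with limma 3.58.1 (R 4.3.3), with Benjamini-Hochberg adjustment over all probes, and again to gene values, the mean of all probes of a gene name. The fit was tested on simulated data. Replicates are different pigs. Members and lists were chosen with earlier results of these data known. All probes of the 10 enzymes are named, list genes only where called or past the criterion of the methods for line or diet (CCS, FTH1 and FTL, as the whole of small groups, marker genes that met either rule, and the CAPNS1 probes were added after their values were seen), and likeness was taken against the GPX3 probe with the largest SD. Alternatives changed the signal, normalization, filter, block, test, prior and the rebuilt column. Tables were handled in Python 3.11.15. A probe sequence and a marker gene are not reported here.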

Additional observations from a re-analysis of the deposited data

Results flagged for a closer look

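A sixth GPX3 spot, O9216, is on the array but outside the deposited table of normalized values, and it gave signal in data that the comparisons did not use. It was well above background on 48 of 48 arrays, with intensities of 108 to 226, or 2.65 to 7.53 times the local background. When all non-control spots were fitted, its line difference was -0.05 (SE 0.06), as small as that of A_72_P637182. O9216 was much dimmer than that probe, and as no background was subtracted, a difference on so dim a spot is compressed. The unretained SOD2 spot O14696 was well above background on 12 of 48 arrays, with a line difference of -0.03 (SE 0.08).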

How the results depend on the processing

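The 4 GPX3 probes kept values between -2.89 and -1.48 and A_72_P637182 between -0.10 and -0.06 under every setting run on them, and of 506 recomputed differences of the 46 other probes 490 kept direction and side of the threshold. Where the brightest probe stood for a gene, GPX3 was -0.08 and SOD1 0.14 (adjusted P-value 0.31). PRDX1 passed at -0.29 with background subtracted and scaling to the 75th percentile, at -0.29 with normexp and quantile normalization and at -0.28 with the replicate block. Probes other than GPX3 called lower in low RFI pigs numbered 1 with that percentile scaling, 1 with normexp and quantile normalization and 2 with the replicate block, all PRDX1, and those called higher numbered 2 with the column as deposited and 5 with the slide as a block, while the share of all retained probes called in either direction moved from 2.77% to 0.714% and 3.53%. Normexp with quantile normalization turned the GPX1 probes A_72_P689751 (-0.00088), A_72_P684140 (-0.01) and A_72_P088441 (-0.01), and the column as deposited turned the CAT probe A_72_P686566 (-0.01). In most cases the cause was not tested, but the deposited column holds 1 repeated value. Pairing by replicate number was not established: same-numbered pigs had a median r of 0.2 (other pigs of the same slide 0.09) and 22 of 48 correlated best with their own number, a hint of pairing, but r exceeded 0.1 in 44 of 72 pairs, not in all. The replicate block changed the calls over all probes from 1027 (2.77%) to 1496 (4.03%). Alternatives for the 61 list genes were added after seeing the data and gave 2 calls in each. The number of pigs limits precision, and dim GPX3 spots limit the size of its difference.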
